A study of Mus musculus with 4 samples.

Results

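The genes described here are 36 transcripts of glycolysis and of the hypoxia response, taken by symbol from a list: the regulator Hif1a, 20 genes for glycolytic enzymes, carriers and the fate of pyruvate, and 15 targets of the hypoxia-inducible factors (HIF) outside glycolysis. All 36 were found among the 14432 genes of the deposited table, and 30 of them reached the level needed for a comparison in at least 1 library. They were measured by single-cell RNA sequencing in bone marrow-derived macrophages, primary macrophages grown out of mouse marrow with the growth factor M-CSF (50 ng/mL). There were 4 groups, each of 1 library. Cells from Trpv4-null mice treated with LPS made the first, cells from wild-type C57BL/6J mice treated with LPS the second, untreated Trpv4-null cells the third and untreated wild-type cells the fourth. LPS, a bacterial cell wall component that macrophages sense through the receptor TLR4, was given at 100 ng/mL for 24 h, and donor mice were 8 to 12 weeks old. Trpv4 encodes a mechanosensitive, calcium-permeable ion channel. The design text names 3 mice per genotype and 12 samples in all, but cells are annotated by library only, with no mouse named. Differences therefore have no replicate check, no p-value is given, and every interval covers counting error only.

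Glycolysis splits glucose into pyruvate in the cytosol, and lactate dehydrogenase turns pyruvate into lactate, which leaves the cell through monocarboxylate carriers. The transcription factor subunit HIF-1 alpha, made from Hif1a, is hydroxylated by oxygen-dependent prolyl hydroxylases and then degraded. When oxygen is low, and also in macrophages activated by LPS, it accumulates, pairs with ARNT and binds DNA at the hypoxia response element, whose core reads ACGTG or GCGTG. Genes of glycolysis, of mitophagy and of blood vessel growth are textbook targets, and a shift towards glycolysis is well known in LPS-activated macrophages.

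The core motif, as ACGTG or GCGTG on either strand (CACGT or CACGC when read on the other strand), was looked for in the 250 bases before the RefSeq start of each gene on GRCm38.p6. Promoters are shown for the 4 members with the lowest and the 2 with the highest log2 ratio of CPM plus 1 between the library labelled Trpv4-null and wild type after LPS, among the 25 members expressed enough to compare there, so that both ends of that comparison can be read beside the values below. Matches are in capitals. Sequences run 5′ to 3′ on the strand of the gene and end at the base before the start. They lie at chr16:36071562-36071811 (minus strand) for Fam162a, chr7:138909507-138909756 (minus) for Bnip3, chr10:78009808-78010057 (minus) for Pfkl, chr11:120948817-120949066 (plus) for Slc16a3, chr6:125165774-125166023 (minus) for Gapdh and chr9:59656326-59656575 (plus) for Pkm.
Fam162a: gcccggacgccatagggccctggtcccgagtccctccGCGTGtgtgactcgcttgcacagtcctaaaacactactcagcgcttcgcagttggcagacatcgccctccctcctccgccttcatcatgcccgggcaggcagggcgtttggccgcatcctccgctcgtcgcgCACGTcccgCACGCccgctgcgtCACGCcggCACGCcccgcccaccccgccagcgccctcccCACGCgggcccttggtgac
Bnip3: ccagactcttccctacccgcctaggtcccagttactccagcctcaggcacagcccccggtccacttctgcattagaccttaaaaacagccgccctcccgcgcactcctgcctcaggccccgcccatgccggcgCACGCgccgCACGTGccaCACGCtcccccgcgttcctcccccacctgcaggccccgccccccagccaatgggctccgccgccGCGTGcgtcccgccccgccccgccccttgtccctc
Pfkl: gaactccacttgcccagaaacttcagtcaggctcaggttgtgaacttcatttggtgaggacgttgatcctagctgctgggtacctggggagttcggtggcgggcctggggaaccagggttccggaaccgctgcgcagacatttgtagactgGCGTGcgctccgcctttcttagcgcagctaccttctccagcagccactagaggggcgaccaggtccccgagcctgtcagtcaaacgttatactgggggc
Slc16a3: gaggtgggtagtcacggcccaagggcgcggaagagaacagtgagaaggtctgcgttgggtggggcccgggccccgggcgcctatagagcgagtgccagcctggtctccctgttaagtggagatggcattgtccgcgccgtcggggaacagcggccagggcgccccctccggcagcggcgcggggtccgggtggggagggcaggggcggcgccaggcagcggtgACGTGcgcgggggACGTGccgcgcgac
Gapdh: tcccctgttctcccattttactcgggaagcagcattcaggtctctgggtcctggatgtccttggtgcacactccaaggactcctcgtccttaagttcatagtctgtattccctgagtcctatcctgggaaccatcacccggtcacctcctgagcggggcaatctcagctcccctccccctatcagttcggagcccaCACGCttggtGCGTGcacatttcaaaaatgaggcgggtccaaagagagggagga
Pkm: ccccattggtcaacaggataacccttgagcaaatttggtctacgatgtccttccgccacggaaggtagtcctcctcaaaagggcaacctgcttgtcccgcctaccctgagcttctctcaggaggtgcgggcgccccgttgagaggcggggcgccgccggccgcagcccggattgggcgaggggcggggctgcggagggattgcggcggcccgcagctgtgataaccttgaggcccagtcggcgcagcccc

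Fam162a held 6 matches and Bnip3 5, of which an adjoining pair in Bnip3 overlaps because CACGTG reads the same on both strands. Slc16a3 held 2, Gapdh 2 and Pfkl 1, and the Pkm promoter, the one of its 2 that 4 of 11 annotated transcripts share, held 0. Among these 6 promoters the number of matches thus did not separate the low from the high end: Gapdh, at the high end, held as many as Slc16a3. The other Pkm promoter held 1 match. The start used is shared by 1 of 13 annotated transcripts for Gapdh, 1 of 8 for Pfkl and 1 of 4 for Fam162a. For Slc16a3 it is 4 of 8 and for Bnip3 3 of 5, so the counts hold for these starts only. RefSeq promoters were matched for 34 members, all but Ndrg1 and Bnip3l, and 31 of these had a match in at least 1 promoter (91.2%). Counted per promoter, 37 of 47 held either form (78.7%), against 38.6% of all 32851 promoters in the table. The ACGTG form was in 23 of the 47 (48.9%), against 16.6% of all. The members' promoters were also richer in G and C, with a median of 64.0% against 52.4% and 18 CG dinucleotides against 6, and the part of base composition in the difference was not tested. A match describes the letters only.

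The libraries had to be read with several measured facts in view. After LPS, the library labelled Trpv4-null held 6565 cells and 109030958 counted molecules (UMIs), and the wild-type library 8288 cells and 144090985 UMIs. Untreated, the library labelled Trpv4-null held 5485 cells and 47000669 UMIs, and the wild-type library 7028 cells and 43731003 UMIs. Cells of the libraries labelled Trpv4-null are called null-label cells. Median UMIs per cell were 16041 in null-label and 16674 in wild-type cells after LPS, and 7893 in null-label and 5660.5 in wild-type cells untreated. The median mitochondrial share was 3.19% in null-label and 3.05% in wild-type cells after LPS, and 6.13% in null-label and 6.06% in wild-type cells untreated. Depth and mitochondrial share thus moved with LPS, depth also differed between the untreated libraries, and their part in the results was not tested beyond the thinning below. Trpv4 itself stood at 9.62 CPM in the library labelled Trpv4-null and 2.07 CPM in wild type after LPS, and at 8.60 CPM in the library labelled Trpv4-null and 5.83 CPM in wild type untreated, where CPM is UMIs per 1000000 UMIs of the library. The null label thus did not go with fewer Trpv4 transcripts. Which part of the gene was deleted is not given, and tags from outside it would check nothing, so these libraries are called by their label throughout, and every genotype direction below rests on that label. Macrophage markers were all present (12 of 12 at 20 CPM or more), and 3 of 7 monocyte, 3 of 8 neutrophil, 1 of 6 B cell and 0 of 7 dendritic cell markers reached 20 CPM in any library. Proliferation markers (6 of 6 present) summed to 156 CPM in null-label and 113 CPM in wild-type cells after LPS, and to 566.5 CPM in null-label and 328 CPM in wild-type cells untreated. Neutrophil markers summed to 25.9 CPM in null-label and 48.3 CPM in wild-type cells after LPS, and to 284.5 CPM in null-label and 173 CPM in wild-type cells untreated. B cell markers summed to 2.70 CPM in null-label and 3.83 CPM in wild-type cells after LPS, and to 142 CPM in null-label and 141 CPM in wild-type cells untreated. Ighm alone made up 136.8 CPM in null-label and 134 CPM in wild-type cells of the untreated sum. Monocyte markers summed to 964 CPM in null-label and 864 CPM in wild-type cells after LPS, and to 104.6 CPM in null-label and 97.7 CPM in wild-type cells untreated. Ms4a4c alone made up 934.5 CPM in null-label and 825 CPM in wild-type cells of the sum after LPS, while Ccr2, F13a1 and Chil3 were lower after LPS than untreated under both labels. The part of these differences in the results was not tested. A barcode sequence was shared between libraries by 148 of 27366 cells, and leaving them out moved no count below by more than 1 member.

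Comparison of a gene needed 20 CPM and 30 UMIs or more in the higher of the libraries compared. A ratio was called by size and not by a test: at 2-fold for LPS against untreated, and between the labels at a log2 ratio of 0.322 in either direction, called the label threshold here. Log2 values are of CPM plus 1. The summed level of the 20 enzyme and carrier genes was 4204 CPM in null-label and 4832 CPM in wild-type cells after LPS, and 2948 CPM in null-label and 2719 CPM in wild-type cells untreated. The 15 HIF targets summed to 680.0 CPM in null-label and 886 CPM in wild-type cells after LPS, and to 712 CPM in null-label and 716 CPM in wild-type cells untreated. The enzyme transcripts took a larger share of the RNA after LPS under both labels. The summed HIF targets were above the untreated level in wild type and slightly below it under the null label. The wild-type direction rests on the HIF target Mif, which rose there from 150.4 CPM untreated to 348.1 CPM after LPS, more than the sum did. Under the null label Mif rose from 171.3 to 249.4 CPM. The other HIF targets together were thus below their untreated level under both labels.

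**Figure D1:**
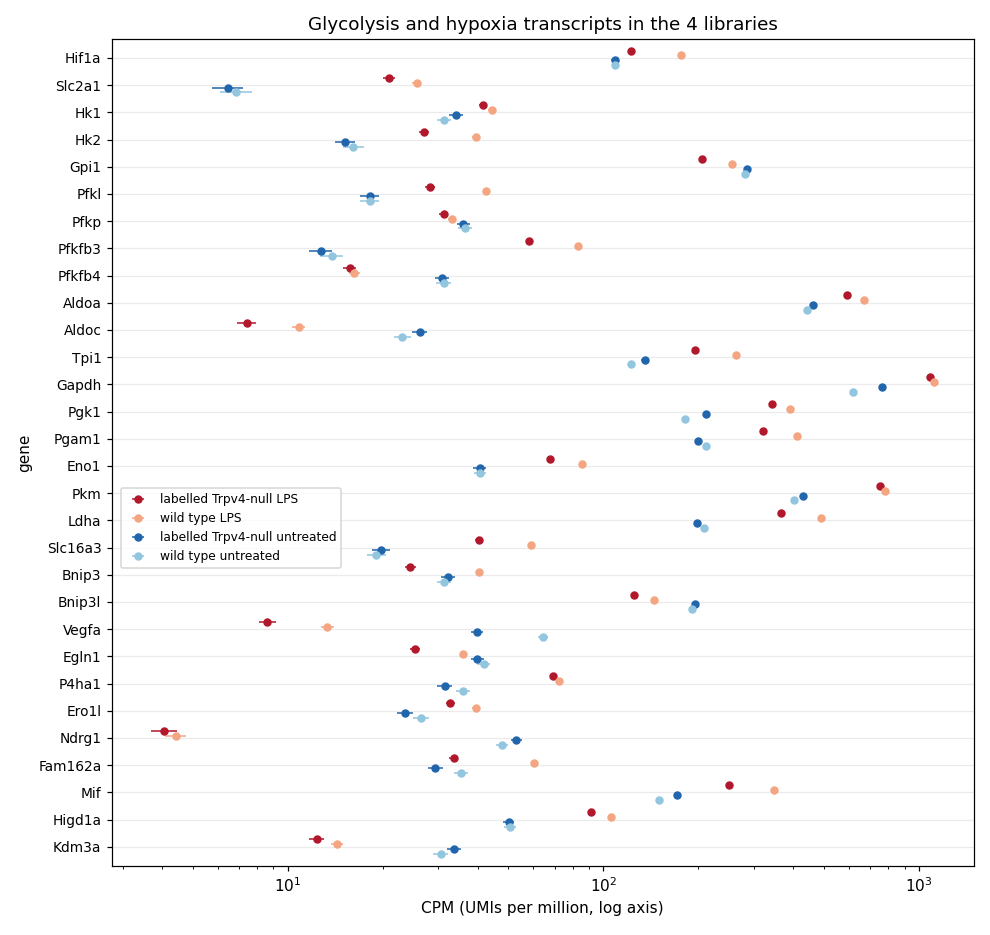
Level of each of the 30 compared members (rows, by role) in the 4 libraries, in CPM on a log axis. Points are 1 library each and bars are exact 95% Poisson intervals, mostly narrower than the point. Both LPS libraries lie right of both untreated ones for genes such as Pfkfb3 and Slc2a1 and left of them for Ndrg1 and Vegfa.

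After LPS, Pfkfb3 and Slc2a1 rose and Ndrg1, Vegfa, Aldoc and Kdm3a fell under both labels with library totals, and most enzyme genes stood above their untreated level. Of 30 members compared, 3 were at least 2-fold higher and 4 at least 2-fold lower after LPS under the null label, where 7.30% of all compared genes were that much higher and 21.3% that much lower. In wild-type cells 11 were higher and 4 lower, where the shares over all compared genes were 6.90% higher and 17.7% lower. The median of the 18 enzyme genes compared was a log2 ratio of 0.65 under the null label and 1.01 in wild type, and that of the 11 HIF targets compared was -0.38 under the null label and 0.36 in wild type. Both of these HIF target medians are the value of the same gene, Bnip3. Of the 11 targets, 5 were above 0 under the null label and 6 in wild type, so the split hardly differed. Over all 15 HIF targets, with no minimum level, the median was -0.63 under the null label and -0.21 in wild type. The median over all compared genes was itself below 0, at -0.42 under the null label and -0.39 in wild type, so relative to it the enzyme median was 1.06 under the null label and 1.395 in wild type, and the median of the 11 HIF targets 0.031 under the null label and 0.74 in wild type. With no minimum level the relative median of all 15 was -0.30 under the null label and 0.084 in wild type, so the wild-type value rests on leaving out 4 low members.

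The zero line of the LPS comparisons depends on the scaling. With median-of-ratios size factors, which centre on the typical gene, the median of all compared genes stood at 0.25 under the null label and 0.19 in wild type. The split of calls over all genes was then 1031 higher and 453 lower under the null label, against 463 higher and 1348 lower with library totals, and 864 higher and 391 lower in wild type, against 437 higher and 1121 lower. Among members it was 16 higher and 3 lower under the null label and 20 higher and 2 lower in wild type. The 13 members added under the null label, with TMM factors too, were Hk2, Pfkl, Tpi1, Gapdh, Pgk1, Pgam1, Eno1, Pkm, Ldha, Slc16a3, Mif, Higd1a and Ero1l, so a 2-fold call of these in wild type and not under the null label, below, holds with library totals and is lost with both other scalings. Relative to the median of all genes the enzyme medians stayed at 0.99 under the null label and 1.35 in wild type, while that of the HIF targets under the null label was -0.048 and so changed side.

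The regulator Hif1a had 122 CPM in null-label and 177 CPM in wild-type cells after LPS, and 109 CPM in null-label and 109 CPM in wild-type cells untreated. The wild-type LPS library stood alone above the other libraries. The LPS ratio was 1.12 under the null label (95% counting interval 1.08 to 1.16) and 1.62 in wild type (1.57 to 1.67), both under the 2-fold size. The gene lies at chr12:73901375-73947530 on the plus strand, opposite the gene model Gm15283, whose level was at most 1.95 CPM. Egln1, the main prolyl hydroxylase that marks HIF-1 alpha for degradation and itself a HIF target, had 25.3 CPM in null-label and 36.01 CPM in wild-type cells after LPS, and 39.9 CPM in null-label and 41.7 CPM in wild-type cells untreated. Its lowest level was thus in the null-label LPS library. Egln3, an inducible enzyme of the same family, stayed between 0.248 and 0.915 CPM in all 4 libraries, too low to compare.

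Glucose entry and its first step had the following levels. The glucose carrier gene Slc2a1 had 20.9 CPM in null-label and 25.6 CPM in wild-type cells after LPS, and 6.45 CPM in null-label and 6.86 CPM in wild-type cells untreated. This was 3.24 times the untreated level under the null label (2.88 to 3.67) and 3.74 times in wild type (3.32 to 4.22). Hk2, the inducible hexokinase that traps glucose as glucose-6-phosphate, had 27.0 CPM in null-label and 39.5 CPM in wild-type cells after LPS, and 15.2 CPM in null-label and 16.1 CPM in wild-type cells untreated. With library totals its wild-type ratio, 2.44, passed 2-fold and its null-label ratio, 1.78, did not, whereas both did with median-of-ratios or TMM factors. Hk1, the constitutive hexokinase, had 41.7 CPM in null-label and 44.3 CPM in wild-type cells after LPS, and 34.1 CPM in null-label and 31.3 CPM in wild-type cells untreated, with LPS ratios of 1.22 under the null label and 1.42 in wild type that did not reach 2-fold.

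Among the upper enzymes the isoforms went apart. Pfkfb3, which makes the allosteric activator fructose-2,6-bisphosphate, had 58.2 CPM in null-label and 83.0 CPM in wild-type cells after LPS, and 12.7 CPM in null-label and 13.8 CPM in wild-type cells untreated. With ratios of 4.58 under the null label (4.21 to 4.99) and 6.03 in wild type (5.56 to 6.56), it had the highest LPS ratio of the 30 compared members in both. Pfkfb4, an enzyme of the same family, had 15.7 CPM in null-label and 16.25 CPM in wild-type cells after LPS, and 30.8 CPM in null-label and 31.2 CPM in wild-type cells untreated, so its log2 ratios of -0.93 under the null label and -0.90 in wild type lay just short of 2-fold lower. Pfkl, the liver-type phosphofructokinase and the pace-setting enzyme of the pathway, had 28.3 CPM in null-label and 42.45 CPM in wild-type cells after LPS, and 18.2 CPM in null-label and 18.2 CPM in wild-type cells untreated. With library totals its ratio was 1.56 under the null label and 2.34, past 2-fold, in wild type. Pfkp, the platelet-type isoform, ranged only from 31.2 to 36.4 CPM over the 4 libraries, and Gpi1, glucose-6-phosphate isomerase, had 206 CPM in null-label and 255 CPM in wild-type cells after LPS, and 285 CPM in null-label and 280.5 CPM in wild-type cells untreated. The LPS ratios of Gpi1 and Pfkp were below 1 under both labels with library totals and above 1 with median-of-ratios or TMM factors, and in wild type also without the 50 highest genes and mitochondrial genes in the total.

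Aldolase isoforms also differed in direction. Aldoa, the muscle-type aldolase, had 590.0 CPM in null-label and 670.2 CPM in wild-type cells after LPS, and 460.0 CPM in null-label and 440.3 CPM in wild-type cells untreated. Aldoc, the isoform best known from brain, had 7.40 CPM in null-label and 10.8 CPM in wild-type cells after LPS, and 26.15 CPM in null-label and 23.0 CPM in wild-type cells untreated. Its ratios, 0.283 under the null label (0.259 to 0.310) and 0.470 in wild type (0.434 to 0.509), were at least 2-fold lower, the only such calls among the enzymes. Tpi1, triosephosphate isomerase, had 196 CPM in null-label and 262.5 CPM in wild-type cells after LPS, and 135 CPM in null-label and 122.5 CPM in wild-type cells untreated. With library totals it stood at 1.45 under the null label and at 2.14, past 2-fold, in wild type.

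The lower enzymes, which turn triose phosphate into pyruvate with a gain of ATP, were above the untreated level after LPS under both labels. Gapdh, the dehydrogenase that opens this stage, had 1081 CPM in null-label and 1113 CPM in wild-type cells after LPS, and 765 CPM in null-label and 616 CPM in wild-type cells untreated. Pgk1, phosphoglycerate kinase, had 342 CPM in null-label and 391 CPM in wild-type cells after LPS, and 212 CPM in null-label and 181 CPM in wild-type cells untreated. Pgam1, phosphoglycerate mutase, had 321 CPM in null-label and 409.7 CPM in wild-type cells after LPS, and 199.6 CPM in null-label and 211 CPM in wild-type cells untreated. The untreated libraries already differed for Gapdh and Pgk1, with ratios of null label to wild type of 1.24 for Gapdh and 1.17 for Pgk1, both short of the label threshold. Eno1, enolase, had 67.9 CPM in null-label and 85.6 CPM in wild-type cells after LPS, and 40.5 CPM in null-label and 40.7 CPM in wild-type cells untreated. Pkm, pyruvate kinase, had 751 CPM in null-label and 781 CPM in wild-type cells after LPS, and 430.2 CPM in null-label and 400.4 CPM in wild-type cells untreated. Pgk1 and Eno1 passed 2-fold in wild type, at 2.16 and 2.11, and with library totals none of the 5 genes of this stage did so under the null label, where their ratios were 1.41 to 1.75. With median-of-ratios or TMM factors all 5 passed 2-fold under the null label. The wild-type call of Eno1 was lost with a pseudocount of 5 and with equal cluster weights.

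Of the genes for the fate of pyruvate, Ldha, which makes lactate, had 365.5 CPM in null-label and 490.3 CPM in wild-type cells after LPS, and 198 CPM in null-label and 208 CPM in wild-type cells untreated. Slc16a3, a carrier that exports lactate, had 40.3 CPM in null-label and 59.0 CPM in wild-type cells after LPS, and 19.7 CPM in null-label and 19.1 CPM in wild-type cells untreated. The ratio of Ldha was 1.84 under the null label (1.80 to 1.89) and 2.36 in wild type (2.31 to 2.41). That of Slc16a3 was 2.04 (1.90 to 2.20) under the null label, which with the pseudocount is a log2 of 0.9952 and so just short of a call, and 3.09 (2.88 to 3.32) in wild type. Pdk1, a kinase that keeps pyruvate out of the mitochondrial cycle, had 11.7 CPM in null-label and 17.8 CPM in wild-type cells after LPS, and 19.6 CPM in null-label and 19.7 CPM in wild-type cells untreated, all under the 20 CPM needed. Slc16a1, another lactate carrier, stayed between 1.95 and 3.00 CPM.

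HIF targets outside glycolysis did not share a direction. Vegfa, the vascular growth factor, had 8.62 CPM in null-label and 13.35 CPM in wild-type cells after LPS, and 39.7 CPM in null-label and 64.5 CPM in wild-type cells untreated. Its LPS ratio was 0.217 under the null label (0.200 to 0.235) and 0.207 in wild type (0.195 to 0.220). Ndrg1, a stress-responsive gene named for its repression by N-myc, had 4.06 CPM in null-label and 4.41 CPM in wild-type cells after LPS, and 53.0 CPM in null-label and 47.8 CPM in wild-type cells untreated. Its ratio, 0.0767 under the null label (0.0691 to 0.0849) and 0.0923 in wild type (0.0843 to 0.101), was the lowest of the 30 members in both. Kdm3a, a histone demethylase that needs oxygen, had 12.3 CPM in null-label and 14.4 CPM in wild-type cells after LPS, and 33.6 CPM in null-label and 30.5 CPM in wild-type cells untreated. With Aldoc, these 3 genes made up the 4 members lower after LPS under both labels.

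The mitophagy receptors moved little with LPS. Bnip3 had 24.5 CPM in null-label and 40.4 CPM in wild-type cells after LPS, and 32.25 CPM in null-label and 31.3 CPM in wild-type cells untreated. Its LPS library was thus the lowest of all under the null label and the highest of all in wild type. Bnip3l had 125 CPM in null-label and 145 CPM in wild-type cells after LPS, and 195 CPM in null-label and 191.5 CPM in wild-type cells untreated, so its ratios of 0.643 under the null label and 0.755 in wild type were under 1 without reaching 2-fold. With median-of-ratios or TMM factors the ratio of Bnip3 under the null label and those of Bnip3l and Egln1 in wild type were above 1.

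P4ha1, a catalytic subunit of the collagen prolyl hydroxylase, had 69.5 CPM in null-label and 72.5 CPM in wild-type cells after LPS, and 31.4 CPM in null-label and 35.9 CPM in wild-type cells untreated. Its ratios of 2.21 under the null label and 2.02 in wild type lay on either side of a call on the log2 scale with the pseudocount, at 1.12 under the null label and 0.99 in wild type. Mif, a cytokine that counters glucocorticoids, had 249.4 CPM in null-label and 348 CPM in wild-type cells after LPS, and 171 CPM in null-label and 150.4 CPM in wild-type cells untreated. Higd1a, a protein of the inner mitochondrial membrane, had 91.6 CPM in null-label and 106 CPM in wild-type cells after LPS, and 50.2 CPM in null-label and 50.5 CPM in wild-type cells untreated. Mif stood at 1.46 times the untreated level under the null label and 2.31 times in wild type, and Higd1a at 1.83 times under the null label and 2.10 times in wild type, so with library totals both passed 2-fold in wild type and not under the null label. With median-of-ratios or TMM factors both passed it under the null label as well. The wild-type call of Higd1a was lost with a pseudocount of 5 and with thinning to 3000 UMIs. Ero1l, an oxidase that forms disulphide bonds in the endoplasmic reticulum, had 32.7 CPM in null-label and 39.4 CPM in wild-type cells after LPS, and 23.55 CPM in null-label and 26.5 CPM in wild-type cells untreated. Fam162a, a mitochondrial protein, had 33.5 CPM in null-label and 60.2 CPM in wild-type cells after LPS, and 29.4 CPM in null-label and 35.4 CPM in wild-type cells untreated. As for Hif1a, the wild-type LPS library of Fam162a stood apart above the other 3. P4ha2, a second collagen hydroxylase subunit, Ankrd37, an ankyrin repeat protein, and Ddit4, an inhibitor of the growth kinase mTOR, stayed between 0.550 and 5.21 CPM and were not compared.

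**Figure D2:**
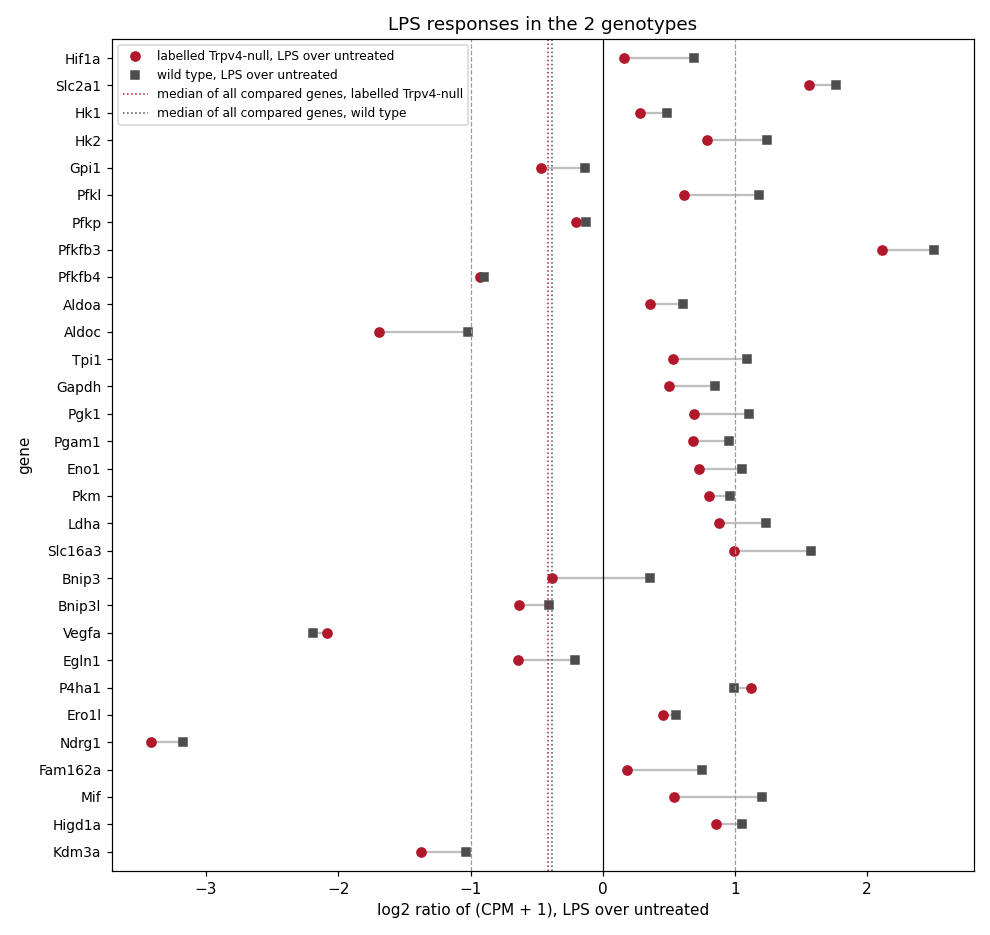
Log2 ratio of LPS to untreated (CPM plus 1) for the 30 compared members under the null label (circles) and in wild type (squares), joined by a line, with dashed lines at 2-fold and dotted lines at the median of all compared genes. The circle lies left of the square for 28 members, and right of it for P4ha1 and Vegfa.

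The question the series sets is how cells of the null label differ from wild type. After LPS, all 25 members compared were lower in null-label than in wild-type cells with library totals, and 22 of 25 with median-of-ratios or TMM factors, under which Gapdh, Pkm and P4ha1 turned, to 0.037, 0.021 and 0.017 with median-of-ratios. Over all genes, 3280 of 5236 compared (62.6%) were lower with library totals. Past the label threshold, 13 were lower and 0 higher, where 2.56% of all 5236 compared genes were that much lower and 3.04% that much higher. The members' median log2 ratio was -0.33, at -0.32 for the 16 enzyme genes and -0.37 for the 8 HIF targets, against -0.043 over all compared genes. The split over all genes, 159 higher and 134 lower, became 292 higher and 71 lower with median-of-ratios factors, and 174 higher and 233 lower when the 50 highest genes and mitochondrial genes were left out of the total.

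The 13 members past the label threshold were Hif1a, 8 enzyme and carrier genes and 4 HIF targets. The lowest ratio was that of Fam162a, at 0.556 of the wild-type level (95% counting interval 0.535 to 0.578), followed by Bnip3 at 0.606 (0.579 to 0.634). Both are HIF targets tied to mitochondria, as are Bnip3l and Higd1a, which were not past the label threshold. Next stood the enzymes and carriers Pfkl at 0.666 (0.638 to 0.696), Hk2 at 0.683 (0.653 to 0.715) and Slc16a3 at 0.684 (0.659 to 0.709), then Hif1a at 0.690 (0.676 to 0.705). Pfkfb3 stood at 0.701 (0.680 to 0.722) and Egln1 at 0.702 (0.670 to 0.735). The intervals of Fam162a and Bnip3 lay apart from each other and below the rest, while those of the 6 genes from Pfkl to Egln1 overlapped one another. Mif at 0.716, Tpi1 at 0.745, Ldha at 0.746 (0.736 to 0.755), Pgam1 at 0.783 and Eno1 at 0.794 completed the set, and Gpi1, at 0.807, lay just outside. With median-of-ratios or TMM factors Pgam1 and Eno1 were no longer past the threshold and Pdk1 was, and Eno1 also dropped out with a pseudocount of 5 or equal cluster weights. They span the pathway, with steps of glucose phosphorylation, lactate formation and lactate export beside Hif1a itself.

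Other members differed little. Pkm at 0.961 (0.953 to 0.970) and Gapdh at 0.972 (0.965 to 0.979) were the nearest to 1, with P4ha1 at 0.959, Hk1 at 0.941 and Pfkp at 0.939. Slc2a1 at 0.816, Ero1l at 0.831, Higd1a at 0.865, Bnip3l at 0.866, Pgk1 at 0.875 and Aldoa at 0.880 lay in between. Of the members too low to compare after LPS, Vegfa stood at 0.646, Pdk1 at 0.6605, Aldoc at 0.684, Kdm3a at 0.858, Ndrg1 at 0.921 and Pfkfb4 at 0.968 of wild type. Egln3 had 27 UMIs in null-label and 123 UMIs in wild-type cells, a ratio of 0.290 (0.184 to 0.443), and Ankrd37 had 201 UMIs in null-label and 505 UMIs in wild-type cells, a ratio of 0.526 (0.444 to 0.621).

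In untreated cells the members did not lie to one side. The 25 compared there differ in part from those compared after LPS: 20 are shared, and of these 10 were above and 10 below the wild-type level. Of all 25, 13 were above and 12 below it with a median of 0.024, and 1 was lower past the label threshold and 0 higher, where 3.01% of all compared genes were that much lower and 3.41% that much higher. The 1 lower member was Vegfa, which was too low to compare after LPS, with a ratio of 0.616 (0.581 to 0.654). Hif1a had a ratio of 0.998 (0.959 to 1.04), Pfkl, though under 20 CPM, 1.001 (0.908 to 1.10), and Bnip3 1.03 (0.957 to 1.11). Fam162a, lowest after LPS, was also below 1 untreated, at 0.828 (0.770 to 0.891), and Gapdh, at 1.24 (1.22 to 1.26), came closest to the label threshold from below.

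**Figure D3:**
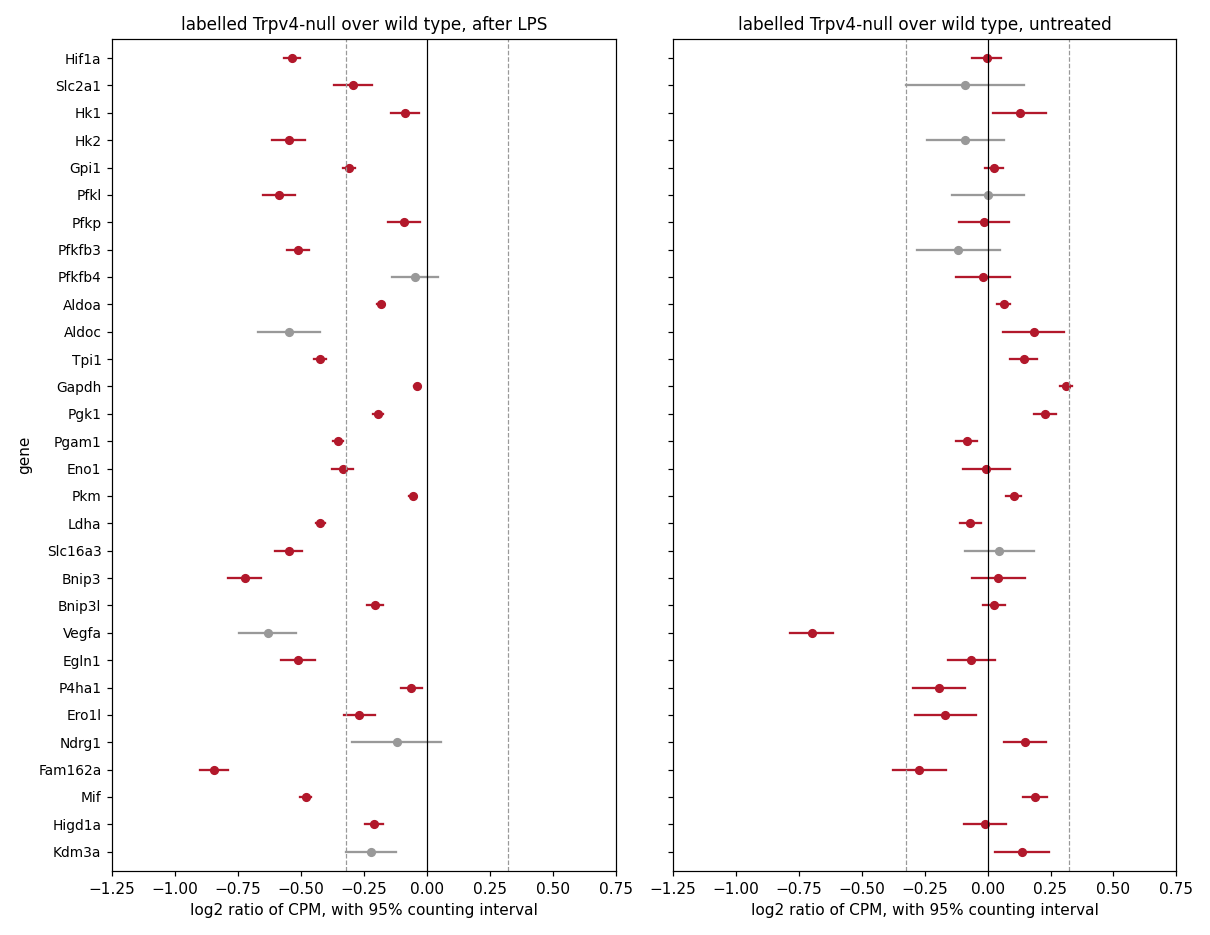
Log2 ratio of CPM of the null label over wild type after LPS (left panel) and untreated (right panel) for the 30 members, without a pseudocount and with exact 95% counting intervals. Red points were compared, grey points were under the level for it, and dashed lines mark the label threshold of 0.322. After LPS no point lies right of 0, whereas untreated points lie on both sides and Vegfa is the 1 point past a dashed line.

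The difference between the LPS responses puts these values together and uses the same 4 libraries, so it is not separate evidence. It was below 0 for 28 of 30 members, where 3830 of 6471 compared genes were below 0 (59.2%). Past 0.322 the signed log2 response was lower under the null label for 17 and higher for 0, where 6.29% of all compared genes were that much lower and 4.19% that much higher. Of the 17, 12 were above the untreated level under both labels and less so under the null label. The other 5 were Gpi1, Aldoc, Egln1 and Kdm3a, which were below the untreated level under both labels and further below it under the null label, and Bnip3, with opposite signs. Over all genes that is 407 lower and 271 higher, against 208 lower and 445 higher with median-of-ratios factors, with which 13 members were lower and 0 higher. Bnip3 differed most, at -0.74 on the log2 scale, then Aldoc at -0.67, Mif at -0.67, Slc16a3 at -0.58, Pfkl at -0.57, Tpi1 at -0.56 and Fam162a at -0.56. Hif1a followed at -0.53. Gapdh, whose LPS levels were nearly equal, was at -0.35, with its higher untreated level under the null label. The exceptions above 0 were P4ha1 at 0.13 and Vegfa at 0.11. The value of Vegfa turned to -0.064 when cells were thinned to 3000 UMIs, and that of Pfkfb4, -0.027, turned to 0.046 with median-of-ratios factors.

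The share of cells with a UMI followed the levels once depth was made equal. With each cell thinned to 3000 UMIs, Fam162a was found in 8.85% of null-label and 15.4% of wild-type cells after LPS, and in 8.055% of null-label and 9.49% of wild-type cells untreated. Hif1a was found in 31.2% of null-label and 39.95% of wild-type cells after LPS, and in 27.5% of null-label and 27.3% of wild-type cells untreated. Pfkfb3 was found in 16.7% of null-label and 21.9% of wild-type cells after LPS, and in 3.70% of null-label and 4.02% of wild-type cells untreated. The wild-type LPS library was the highest for all 3 genes. Without thinning, the shares for Fam162a were 37.7% of null-label and 53.6% of wild-type cells after LPS, and 20.95% of null-label and 19.15% of wild-type cells untreated. The untreated order was thus the reverse of that after thinning. Depth per cell differed between LPS and untreated libraries and also between the untreated libraries. Thinning left out 93 null-label and 122 wild-type cells after LPS, and 209 null-label and 666 wild-type cells untreated. All clusters carry macrophage transcripts, so no cell type that should lack these genes was at hand to gauge free RNA.

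The authors had assigned the cells to 9 clusters, and 8 had at least 100 cells in each library. The clusters were made from the same cells and genes, so levels across them are a description. Within clusters, 18 of the 25 compared members were lower in null-label than in wild-type cells after LPS in 8 of 8 clusters, among them Hif1a, Hk2, Pfkl, Ldha, Slc16a3, Bnip3, Egln1, Fam162a and Mif. The others were Slc2a1, Pfkfb3 and Ero1l in 7 of 8, Pfkp and Gapdh in 6 of 8, and Hk1 and P4ha1 in 5 of 8. Clusters were not counted in this way for all genes, of which 62.6% of those compared were lower by whole library. The enzyme median ran from -0.15 in the cluster named Proliferating to -0.46 in Cd74+, and the HIF target median from -0.24 in Tmem176+ to -0.51 in Il1b+_Cxcl2+, while the median of all genes lay between -0.011 and -0.078. Lower levels were thus measured inside each of the 8 clusters, and with every cluster weighted equally 12 members were lower past the label threshold, against 2.26% of all genes compared that way.

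**Figure D4:**
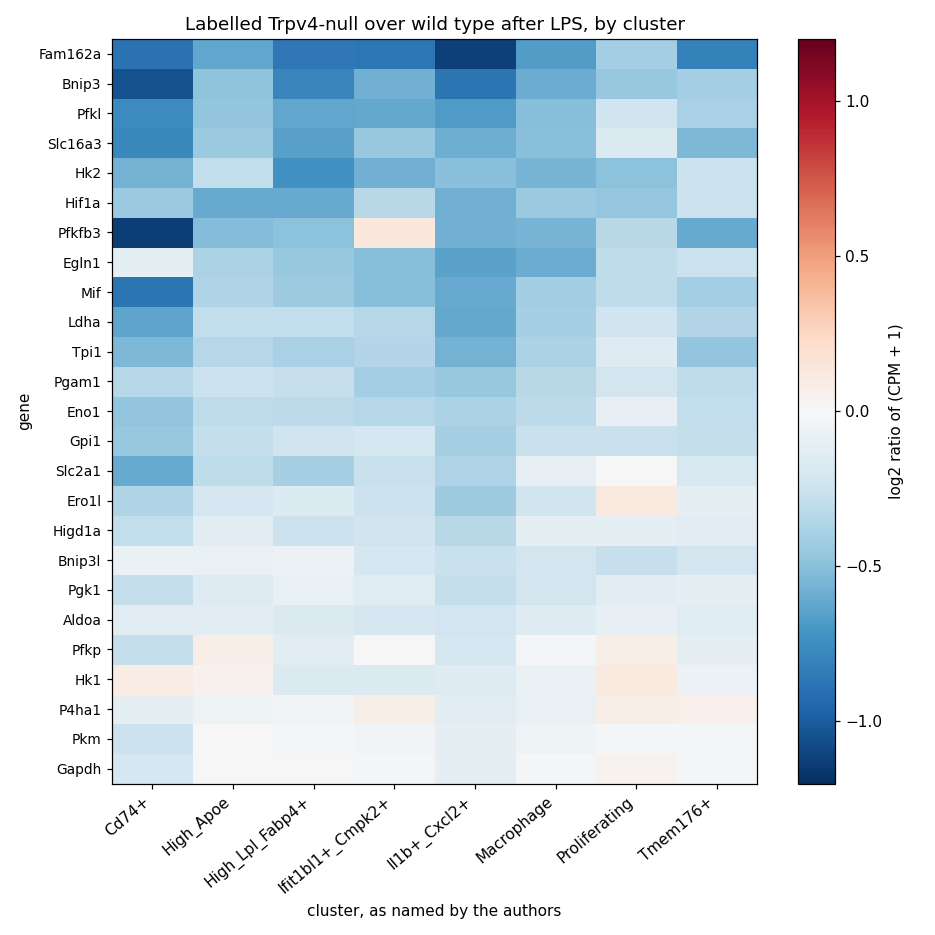
Log2 ratio of null label over wild type after LPS (CPM plus 1) for the 25 compared members (rows, lowest overall ratio at the top) in the 8 clusters (columns, as named by the authors). Blue is lower in null-label cells. The upper rows are blue in nearly every cluster, with Pfkfb3 in Ifit1bl1+_Cmpk2+ as an exception, and the lower rows are pale.

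By cluster, Hif1a after LPS ran from 78.3 CPM in Ifit1bl1+_Cmpk2+ to 153 CPM in Macrophage in null-label cells, and from 99.2 CPM in Ifit1bl1+_Cmpk2+ to 218 CPM in Il1b+_Cxcl2+ in wild-type cells. The cluster ratio was widest in High_Apoe, at -0.60, and narrowest in Tmem176+, at -0.26. Fam162a had its lowest cluster ratio, -1.12, in Il1b+_Cxcl2+, with 34.8 CPM in null-label and 76.7 CPM in wild-type cells. Bnip3 and Pfkfb3 had theirs in Cd74+: Bnip3 had 17.7 CPM in null-label and 37.5 CPM in wild-type cells there, and Pfkfb3 33.1 CPM in null-label and 73.4 CPM in wild-type cells. Cd74+ was a small cluster, with 232 null-label and 193 wild-type cells after LPS. Pfkfb3 alone among these turned in Ifit1bl1+_Cmpk2+, with 68.6 CPM in null-label and 62.9 CPM in wild-type cells. That cluster, named for interferon-induced genes, had the lowest level of 14 of the 18 compared enzyme genes in both LPS libraries. It also had the lowest level of Hif1a in both, and of 6 of 11 HIF targets under the null label and 5 of 11 in wild type. Lowest clusters were not counted over all genes, so these counts have no share to be set against. The summed enzyme level of that cluster was 3446 CPM in null-label and 3851 CPM in wild-type cells after LPS. In Tmem176+ the sum was 4947 CPM in null-label and 5505 CPM in wild-type cells, the highest of the 8 clusters in both.

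LPS directions were also shared across clusters. In null-label cells 14 members were above the untreated level in 8 of 8 clusters and 8 were below it in 8 of 8. In wild-type cells 19 were above it in 8 of 8 and 6 below it in 8 of 8. Clusters were not counted in this way for all genes. By whole library, 70.7% of all compared genes were below the untreated level under the null label and 71.2% in wild type. Bnip3 was below the untreated level in 8 of 8 clusters under the null label, from -1.05 in Cd74+ to -0.15 in High_Apoe, and above it in 7 of 8 in wild type, where it was -0.023 in Ifit1bl1+_Cmpk2+ and 0.65 in Il1b+_Cxcl2+. In untreated cells the proliferating cluster had the highest level of 7 of the 18 enzyme genes under both labels, and the lowest level of 4 under the null label and of 5 in wild type. Highest and lowest clusters were not counted over all genes. Vegfa untreated was highest in Il1b+_Cxcl2+, with 54.7 CPM in null-label and 98.45 CPM in wild-type cells, and was lower in null-label cells in 7 of 8 clusters. Its exception was the proliferating cluster, with 40.9 CPM in null-label and 38.1 CPM in wild-type cells.

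**Figure D5:**
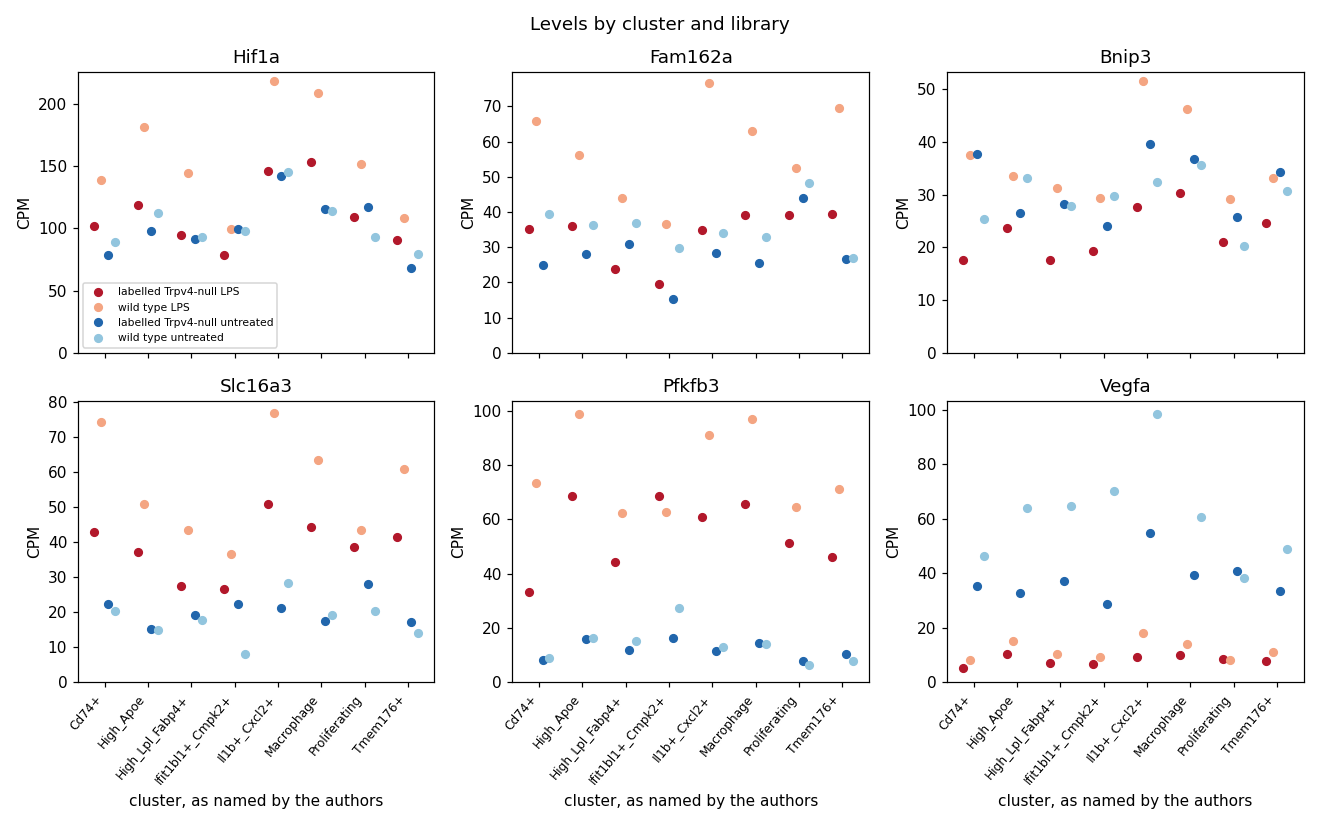
CPM of 6 members in the 8 clusters in the 4 libraries, 1 point per cluster and library. The wild-type LPS point is the highest in 8 of 8 clusters for Fam162a and Slc16a3, in 7 for Hif1a and Pfkfb3 and in 5 for Bnip3, and for Vegfa both untreated points lie above both LPS points in each cluster.

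Over the 32 sums of 8 clusters and 4 libraries, members varied together to different degrees. After the mean of each library was taken off, the highest correlation of log2 levels was between Tpi1 and Pgam1 (Pearson r 0.94), then between Gapdh and Eno1 (0.91). These points share libraries and totals, so the values are a description. Among pairs with a HIF target, Fam162a correlated with Tpi1 at 0.83 and with Higd1a at 0.82, and Hk1 with P4ha1 at 0.75. Hif1a correlated with Ero1l at 0.71 and with Vegfa at 0.69, the highest of its pairs. Its other pairs ran down to -0.17 with Gapdh and -0.22 with Ndrg1, and with Ldha the value was 0.11. Before the library means were taken off, the value of Hif1a with Vegfa was -0.20.

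Neighbouring pathways were counted with the same sizes. Of 17 other glycolysis genes in the table, 5 were compared after LPS. Slc2a6, a carrier of the glucose transporter family, had 107.5 CPM in null-label and 64.6 CPM in wild-type cells, and the hexokinase Hk3 had 164 CPM in null-label and 130.4 CPM in wild-type cells, so both were higher past the label threshold. Pgm2, a phosphoglucomutase, was lower past it with 20.6 CPM in null-label and 28.2 CPM in wild-type cells. Over all compared genes, 3.04% were that much higher and 2.56% that much lower after LPS. Slc2a6 and Hk3 were thus opposite in direction to the members of their own families, Slc2a1 and Hk2. None of 4 compared genes of pyruvate dehydrogenase and its kinases, 6 of the pentose phosphate pathway, 14 of the citric acid cycle, 7 of HIF regulation (Arnt and Egln2 among them) and 4 other HIF targets passed the label threshold after LPS. Their medians were -0.083, -0.12, -0.051, 0.00058 and 0.041 in that order. Only 4 of the 23 other HIF targets in the table were expressed enough to compare after LPS. That count and median thus do not cover the rest of this list. Untreated, the citric acid cycle gene Fh1 was higher with 97.0 CPM in null-label and 54.4 CPM in wild-type cells, the HIF regulator Cited2 lower with 157 CPM in null-label and 226 CPM in wild-type cells, Tfrc higher with 66.2 CPM in null-label and 49.8 CPM in wild-type cells and Bhlhe41 lower with 29.2 CPM in null-label and 38.8 CPM in wild-type cells, with no other call in these lists. The shares of all compared genes past the label threshold untreated were 3.41% higher and 3.01% lower. With LPS, 5 of 9 other HIF targets under the null label and 4 of 8 in wild type were at least 2-fold lower and none higher, where 21.3% of all compared genes were that much lower under the null label and 17.7% in wild type, led by Zfp395 with log2 ratios of -3.64 under the null label and -2.97 in wild type. Other glycolysis genes were at least 2-fold higher in 2 of 5 cases under the null label and 3 of 6 in wild type, with 0 lower. Over all compared genes, 7.30% were that much higher under the null label and 6.90% in wild type. Under each label 1 of 5 genes of pyruvate dehydrogenase (Pdp1), 1 of 6 of the pentose phosphate pathway (Taldo1), 2 of 14 of the citric acid cycle (Fh1, Idh3g) and 2 of 8 of HIF regulation (Hif1an, Cited2) were lower, with 0 higher. These counts are near the shares of all compared genes that were that much lower, 21.3% under the null label and 17.7% in wild type.

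Counts of some members may include reads of other loci. Strand use in counting is not stated, and 10 members overlap a gene of the table on the opposite strand, 0 on the same strand. For most the partner was low: Wdr5b opposite Fam162a reached 4.35 CPM at most. It was higher opposite Ankrd37 (Ufsp2, 77.5 CPM at most), Tpi1 (Spsb2, 50.2 CPM), Gapdh (Iffo1, 36.7 CPM) and Pfkp (Pitrm1, 22.9 CPM). Several glycolytic genes, Gapdh among them, are known for many processed pseudogenes, which can take or lend reads.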

How the data were processed

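The deposited table gives UMI counts per gene and cell, as whole numbers that the authors had not normalized, and the deposited annotation gives each cell's library, cluster and UMI count. The submitters' processing notes name Cell Ranger 3.1.0, Seurat 4, R 4.2 and the build mm10, with no role or order. Deposited cells held 1003 to 39987 UMIs and at most 9.9979% mitochondrial UMIs, which the authors deposited as a fraction of each cell's UMIs, and the summed counts equal the annotated total in all 27366 cells. How doublets were treated is not given in the sources used here.

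Counts were summed per library and scaled to CPM. Ratios are log2 of CPM plus a pseudocount of 1, with a minimum of 20 CPM and 30 UMIs in the higher library. Intervals at 95% are exact Poisson (CPM), exact conditional (ratios) and Clopper-Pearson (shares). Since each group is 1 library there was no test, and calls past 2-fold or a log2 ratio of 0.322 were counted beside the same share of all genes. Cluster values use the 8 author clusters that held 100 cells or more per library, so not High_Btg1. Described in full were all members that could be compared, and the promoters shown follow the ratio after LPS among them. Members and lists were chosen with earlier results of these data known. Alternatives were median-of-ratios and TMM scaling, a total without the 50 highest and mitochondrial genes, pseudocounts of 0.1 and 5, no minimum, means over cells, equal cluster weights, no proliferating cluster, thinning to 3000 UMIs and no shared barcodes. The steps were tested on simulated counts. Gene positions came from GENCODE M21. TMM factors came from edgeR 4.0.16 (R 4.3.3), and all else was run in Python 3.11.15 with pandas 2.3.3, scipy 1.17.1, numpy 2.4.6 and matplotlib 3.10.9.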

Additional observations from a re-analysis of the deposited data

Results flagged for a closer look

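Bnip3 stood on opposite sides of its untreated level in the LPS libraries: the log2 ratio of LPS to untreated was -0.3848 under the null label and 0.3576 in wild type, and the counting intervals of both ratios lay clear of 1. The difference was not tested, since each group is 1 library. With median-of-ratios or TMM factors the null-label value turned to 0.20 or 0.18, so that both were then above 0.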

How the results depend on the processing

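No paired analysis was possible because each group is 1 library, and for the same reason no replicate could be left out. The count of members lower past the label threshold under the null label after LPS, 13, ran from 12 to 19 over the 11 alternatives, the 19 without a minimum level, and that of higher members was 0 in each. The number at least 2-fold higher with LPS under the null label, 3, became 16 with median-of-ratios factors, 16 with TMM factors and 6 without the 50 highest and mitochondrial genes in the total. In wild type, 11 higher became 20 with median-of-ratios and 19 with TMM factors, and 4 lower became 2 with each of these, without the 50 highest and mitochondrial genes and with a pseudocount of 5, losing Aldoc and Kdm3a. Of the higher calls there, Eno1 was lost with a pseudocount of 5 or equal cluster weights. Higd1a was lost with that pseudocount or with thinning. Between untreated libraries, 0 higher became 1 without a minimum level (Ddit4) and 1 as a mean over cells (Gapdh), and 1 lower became 2 with equal cluster weights and 2 without the proliferating cluster, gaining Fam162a. No member whose ratio was past its size reversed, and other counts stayed within 1.5 times. Why the scalings differ was not tested. Depth limits genes under 20 CPM, 6 members in all libraries.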

Other observations

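Ddit4, an inhibitor of mTOR that stayed under the level for a comparison, had 245 UMIs in null-label and 79 UMIs in wild-type untreated cells, 5.21 CPM in null-label and 1.81 CPM in wild-type cells, a ratio of 2.89 (95% counting interval 2.23 to 3.77), and 0.550 CPM in null-label and 0.840 CPM in wild-type cells after LPS. It was chosen after its values were seen.

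The small cluster High_Btg1, left out above for its cell number, had 23 null-label and 36 wild-type cells after LPS. There Hif1a stood at 298 CPM in null-label and 442 CPM in wild-type cells, Bnip3 at 95.6 CPM in null-label and 102 CPM in wild-type cells, Slc16a3 at 136 CPM in null-label and 165 CPM in wild-type cells, and Hk2 at 82.2 CPM in null-label and 148 CPM in wild-type cells. These genes were chosen after their values were seen, and the counts behind the null-label values were 37 to 134 UMIs. Each value lay above that of the same library in all 8 other clusters. The remaining members and all genes were not counted in this way, so these values do not describe the members as a set.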
